A study of Mus musculus with 6 samples.

Results

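The nuclear genes that encode the subunits of oxidative phosphorylation were followed in mouse colon cells through 6 single-cell RNA libraries. Members were taken by gene symbol: the numbered Ndufa, Ndufb, Ndufc, Ndufs and Ndufv genes, the Cox4 to Cox8 families, the Uqcr and Atp5 genes, and Sdha, Sdhb, Sdhc and Sdhd. This gave 84 of 32285 listed genes, of which 37 were counted to complex I, 4 to complex II, 8 to complex III, 18 to complex IV and 17 to complex V. The pseudogene Ndufb1-ps was left out, and Ndufab1, the complex III subunit gene Cyc1, the assembly factors and the 13 mitochondrially encoded subunits lie outside the rule. All 84 members were found by identifier in the GENCODE M21 annotation of GRCm38, spread over 19 chromosomes with at most 8 on any one.

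Oxidative phosphorylation runs in the inner mitochondrial membrane. Complex I (NADH dehydrogenase) and complex II (succinate dehydrogenase, also an enzyme of the tricarboxylic acid cycle) feed electrons to ubiquinone, complex III passes them to cytochrome c, complex IV (cytochrome c oxidase) reduces oxygen, and complex V is the ATP synthase. Most subunits are made in the cytosol from nuclear genes, while a few core subunits are made inside the organelle from mitochondrial DNA; complex II is entirely nuclear. Several complex IV subunits exist as isoforms from separate genes, such as the heart and muscle form Cox7a1 and the widely expressed form Cox7a2. Colon epithelium is known for its use of microbial butyrate as a mitochondrial fuel, and activated macrophages and T cells are known to shift between glycolysis and respiration.

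The mice had received a transplant of bone marrow alone (the BM library) or of bone marrow with added spleen cells (the GVHD library, for graft-versus-host disease), and donor macrophages carrying CD11b and CD64 were sorted from their colons. A further pair of macrophage libraries and a pair of donor T-cell libraries came from wild-type (WT) and IL-34-/- recipients, the latter labelled IL34KO here. IL-34 is a ligand of the CSF1 receptor, which macrophages carry. Whether these recipients were given spleen cells was not stated for them. There was 1 library per group, and strain, age, the number of mice pooled and whether T-cell and macrophage libraries came from the same mice were not given in the labels. The protocol names 10x Genomics kits for 5′ and for 3′ ends without saying which library had which.

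The deposited libraries held 4169 to 18360 cell barcodes and 43660889 to 114425913 unique molecular identifiers (UMIs, counted RNA molecules). Cells were assigned to a myeloid, a T or an epithelial gate by 8 marker genes each, with at least 3 own markers and at most 1 of each other class, which left 16.9% to 50.2% of filtered cells in no gate. The myeloid gates held 1998 (BM), 2048 (GVHD), 2703 (WT macrophage), 2473 (IL34KO macrophage), 6568 (WT T-cell) and 3718 (IL34KO T-cell) cells. Both T-cell libraries therefore held more myeloid-gated than T-gated cells, of which there were 2597 and 1520; the macrophage libraries held 96 to 208 T-gated cells. Epithelial gates held 36 to 745 cells outside the BM library, whose 10 cells entered no test. All 8 markers of each gate's own class were detected in its cells in every library. The BM and GVHD libraries shared 2502 barcodes against 5 to 75 for every other pair. Those barcodes, with 13.6% of the BM library's UMIs, were dropped from the BM library. They stayed in the GVHD library, which held 4169 barcodes, and which library they belong to is not known. Il34 itself was found at 1.76 CPM (UMIs scaled to a common library total) in the WT and 2.30 in the IL34KO macrophage library; the T-cell libraries had 1.18 (WT) and 1.55 CPM. Which part of Il34 is deleted was not given, so these values do not check the genotype, and the libraries are named by their labels. Levels below are CPM or percentages of the summed UMIs of gated cells. Ranges in parentheses after a level or ratio are exact binomial 95% intervals, which cover counting error only.

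Promoter sequences are shown for 5 members on which the results below turn, with motifs known from mitochondrial gene regulation. RefSeq promoters (250 bases before to 50 after the gene's start, GRCm38.p6) were matched by symbol for 67 of the 84 members. Motifs were searched on both strands and each motif was counted on its own; a match describes letters, not a bound site. The NRF1 motif (GCGCNTGCG) was in 24 of the 67 promoters (35.8%), against 7.12% of 27025 genes with a promoter and 14.2% of the 10746 genes with counts enough to be measured. The ERR motif (AAGGTCA, bound by estrogen-related receptors) was in 8 (11.9%, against 5.38% and 4.19%), the YY1 motif (ATGGCGG) in 10 (14.9%, against 4.69% and 8.70%) and the ETS motif (CCGGAAG) in 17 (25.4%, against 9.93% and 18.9%). TATAAA was in 8 (11.9%, against 15.7% and 9.63%) and CCAAT in 30 (44.8%, against 41.1% and 42.3%). Median GC content was 57.3% in the members, 52.8% in all genes and 60.3% in measured genes. Both an NRF1 and an ETS motif were held by 7 members, among them Sdhd, and 26 held none of NRF1, ETS or YY1. In the promoters printed here, capitals mark NRF1, ETS and ERR motifs on either strand, and a sequence with no capitals holds none of NRF1, ETS, YY1 and ERR. Atp5g3 (a gene of the c-ring of ATP synthase; chr2:73911277-73911576, minus strand) and Sdhd (the smaller membrane anchor of complex II; chr9:50603800-50604099, minus strand) hold such motifs. Cox7a1 (chr7:30183921-30184220, plus strand), its isoform partner Cox7a2 (chr9:79759804-79760103, minus strand) and Ndufa4 (chr6:11907401-11907700, minus strand) hold none in this window. Ndufa4 was named as a complex I subunit and is counted there, although it is known to sit in complex IV.
Atp5g3: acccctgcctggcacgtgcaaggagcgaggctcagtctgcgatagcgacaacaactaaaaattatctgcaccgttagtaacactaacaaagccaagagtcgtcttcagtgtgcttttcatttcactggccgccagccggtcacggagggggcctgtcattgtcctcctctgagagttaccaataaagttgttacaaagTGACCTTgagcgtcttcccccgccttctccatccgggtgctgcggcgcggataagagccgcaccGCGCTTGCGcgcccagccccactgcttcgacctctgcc
Sdhd: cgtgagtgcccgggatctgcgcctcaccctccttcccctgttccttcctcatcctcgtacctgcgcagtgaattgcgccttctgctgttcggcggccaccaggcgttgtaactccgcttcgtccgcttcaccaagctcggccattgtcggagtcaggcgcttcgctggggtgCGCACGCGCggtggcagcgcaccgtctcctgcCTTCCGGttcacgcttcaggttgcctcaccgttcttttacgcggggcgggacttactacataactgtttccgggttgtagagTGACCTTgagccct
Cox7a1: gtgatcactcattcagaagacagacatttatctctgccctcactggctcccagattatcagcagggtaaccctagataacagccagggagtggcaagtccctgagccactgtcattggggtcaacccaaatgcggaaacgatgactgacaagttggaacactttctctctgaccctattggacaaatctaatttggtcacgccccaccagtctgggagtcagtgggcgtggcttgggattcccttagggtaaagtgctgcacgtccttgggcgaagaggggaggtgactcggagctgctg
Cox7a2: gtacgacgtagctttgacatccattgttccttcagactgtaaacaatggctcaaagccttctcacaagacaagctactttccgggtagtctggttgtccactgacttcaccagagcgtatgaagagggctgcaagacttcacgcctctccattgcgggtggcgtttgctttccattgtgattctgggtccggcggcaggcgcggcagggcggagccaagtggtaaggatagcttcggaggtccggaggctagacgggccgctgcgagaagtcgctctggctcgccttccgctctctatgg
Ndufa4: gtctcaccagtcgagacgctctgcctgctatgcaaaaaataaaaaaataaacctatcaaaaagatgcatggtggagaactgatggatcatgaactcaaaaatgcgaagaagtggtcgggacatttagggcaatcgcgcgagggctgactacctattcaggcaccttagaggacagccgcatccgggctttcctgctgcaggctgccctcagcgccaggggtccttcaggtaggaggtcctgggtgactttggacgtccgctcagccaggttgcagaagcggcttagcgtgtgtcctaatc

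Summed over the 84 members, epithelial cells had the highest share of UMIs in every library. In the epithelial gate the members took 4.06% in the BM library (10 cells), 4.31% in GVHD, 4.16% in both the WT and the IL34KO macrophage libraries, 4.63% in the WT T-cell and 4.05% in the IL34KO T-cell library. In the myeloid gate, in the same order, they took 0.930%, 1.62%, 1.76%, 2.00%, 1.82% and 1.65%. The T gate had 1.35%, 1.32%, 1.70%, 1.86%, 1.76% and 1.57%. Myeloid and T shares thus lay close to each other in 4 libraries, the T share was below the myeloid one in GVHD, and the BM library alone had a T share well above its myeloid share. By complex, and with unequal numbers of genes in each, the myeloid gates ran from 0.242% to 0.488% for complex I, 0.0237% to 0.0404% for II, 0.0969% to 0.213% for III, 0.265% to 0.640% for IV and 0.302% to 0.624% for V; BM was the lowest of the 6 libraries in each. The mitochondrially encoded subunits took 1.80% to 3.33% in the myeloid gate and 5.22% to 6.93% in the epithelial gate. Their order across libraries differed from that of the nuclear members: the BM and GVHD libraries were the highest of the 6 in the myeloid gate for mitochondrially encoded RNA and the lowest for nuclear members. The ratio of nuclear to mitochondrial subunit UMIs in myeloid cells was accordingly 0.334 in BM, 0.488 in GVHD, 0.835 and 1.11 in the WT and IL34KO macrophage libraries, and 0.990 and 0.699 in the WT and IL34KO T-cell libraries. Barcodes above 10% mitochondrial UMIs had been filtered out, which caps those values.

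**Figure D1:**
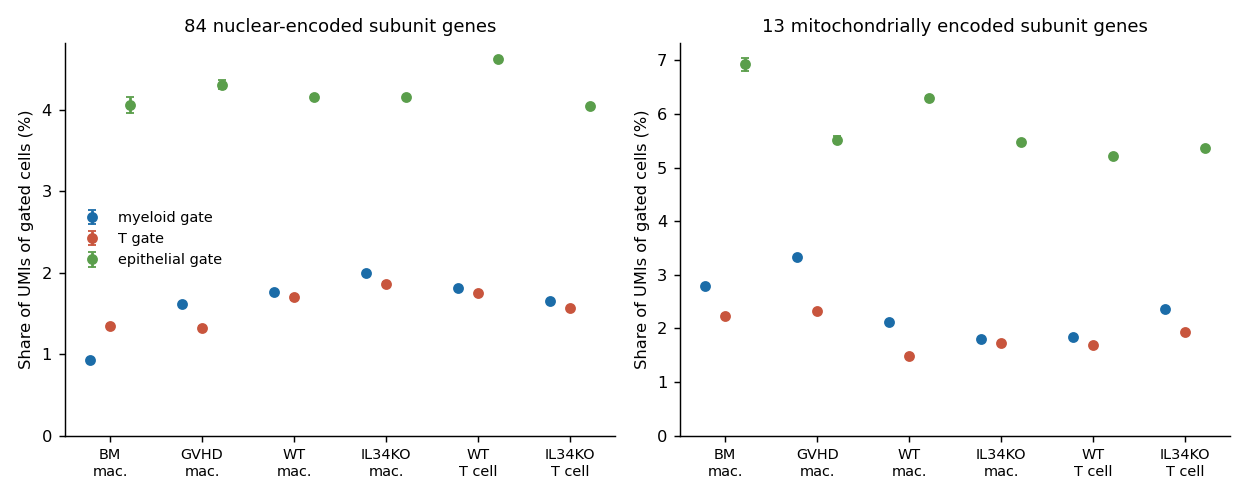
Share of the UMIs of gated cells taken by the 84 nuclear-encoded (left) and 13 mitochondrially encoded (right) subunit genes, in percent, by library and gate; bars are exact binomial 95% intervals (counting error only). Nuclear shares pooled over epithelial cells lie between 4.05% and 4.63%, above all pooled myeloid and T values, and the myeloid gate of the BM library is lowest at 0.930%.

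Epithelial cells had higher levels of nearly the whole set than myeloid cells of the same library. Of 84 members, 78 had counts enough to be tested in the gates, and 72 were higher and 1 lower in epithelial cells by edgeR's quasi-likelihood test with library as a block and a Benjamini-Hochberg adjusted p under 0.05 over 14408 genes; of all genes tested, 36.5% were higher and 37.8% lower. The median log2 difference was 0.92 over the members and -0.03 over all genes. Those higher were 35 of 36 tested in complex I, 4 of 4 in complex II, 8 of 8 in complex III, 11 of 13 in complex IV and 14 of 17 in complex V. By plain CPM, 77 of the 78 were higher in epithelial cells within each of the 5 libraries that had both gates in the test, with medians of 1.13 to 1.48. Scaling by total UMIs instead of TMM moved the median of all genes to 0.47 and that of the members to 1.43, with 77 higher and 1 lower, where 52% of all genes were higher and 26% lower.

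Cox7a1, the heart and muscle isoform of a small complex IV subunit (chromosome 7, 30184144 to 30186078, plus strand), stood furthest apart. It was at 152 CPM in the 10 epithelial cells of the BM library, and at 135, 60.7, 59.5, 88.1 and 65.1 CPM in those of the GVHD, WT macrophage, IL34KO macrophage, WT T-cell and IL34KO T-cell libraries. In the myeloid gate it was at 2.36, 2.47, 2.90, 4.28, 3.91 and 2.62 CPM, so no myeloid value reached an epithelial one. The log2 difference was 4.07 (16.8-fold, SE 0.22, edgeR adjusted p = 1.878e-10). Its widely expressed partner Cox7a2 differed by 1.10. Levels of a few CPM in myeloid and T cells can come from RNA freed by other cells, and its part in them was not tested.

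The other isoform families split less widely. Within complex IV, Cox7b (1.73) and Cox6a1 (1.35) were far higher in epithelial cells than Cox6b1 (0.62) and Cox4i1 (0.58), and Cox8a missed the threshold at 0.26 (adjusted p = 0.08139 by edgeR), although it passed when scaled by total UMIs. Cox6b2, known from testis, differed by 0.77 (adjusted p = 0.04252) on few UMIs and lost the call in 10 alternatives, the fit without the library block among them. Their partners Cox4i2, Cox6a2, Cox7b2 and Cox8b, and the Ndufa4 relative Ndufa4l2, were too low to be tested; Cox4i2 reached at most 3.46 CPM and Cox8c had no UMI in any gate. Of the genes for the ATP synthase c-ring, which encode the same mature protein, Atp5g1 was higher in epithelial cells by 1.64 and Atp5g3 by 1.09, while Atp5g2 was at -0.15 (adjusted p = 0.2176), a value whose sign turned to 0.37 with total-UMI scaling. Atp5o, in the stalk of the synthase, was higher by 1.77. For Ndufa4 the difference was 2.09 (4.25-fold, SE 0.18, adjusted p = 3.595e-08) and for Ndufa12, an accessory complex I subunit, 1.37.

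Complex III and complex II were called throughout. Uqcr11, a small complex III subunit, was higher in epithelial cells by 1.41 and the core protein genes Uqcrc1 and Uqcrc2 by 1.36 each; Uqcrh, the hinge protein, was the least different at 0.47. In complex II the flavoprotein Sdha differed by 0.50, the iron-sulfur subunit Sdhb by 0.63, and the anchors Sdhc and Sdhd by 0.83 and 0.80. The single member lower in epithelial cells was Cox7a2l, a Cox7a relative that links complexes III and IV into supercomplexes (chromosome 17, 83501918 to 83517330, minus strand). Its epithelial levels of 263, 326, 375, 342, 363 and 337 CPM stood against myeloid levels of 239, 468, 446, 398, 506 and 486 CPM. Cox7a2l was thus lower in epithelial cells in the 5 tested libraries and not in BM, with a log2 difference of -0.87 (1.83-fold lower, SE 0.12, adjusted p = 9.802e-06); with total-UMI scaling Cox7a2l, epithelial vs myeloid, was at -0.35.

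Neighbouring gene lists were counted in the same fit. All 13 mitochondrially encoded subunits were higher in epithelial cells (median 0.89), as were 12 of 13 tricarboxylic acid cycle enzymes (0.85), 9 of 11 electron and nucleotide carriers, 30 of 45 assembly factors (3 lower) and 53 of 78 mitochondrial ribosome genes (5 lower). Regulators of mitochondrial biogenesis gave 6 higher and 2 lower of 11. Glycolysis went the other way, with 10 of 15 genes lower and none higher (median -0.80), and 48 of 84 cytosolic ribosome genes were lower against 3 higher. Over the 17 library-by-gate sums, the genes outside the set whose log CPM followed the summed members most closely were Phb2 (a prohibitin of the inner membrane; Pearson r = 0.983), Cyc1 (cytochrome c1 of complex III; 0.982) and Suclg1 (succinate-CoA ligase; 0.982). Cyc1 is itself a nuclear gene of a complex III subunit that the symbol rule leaves out, and it was counted among the carriers. The sums share libraries and gates, so these correlations are a description.

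**Figure D2:**
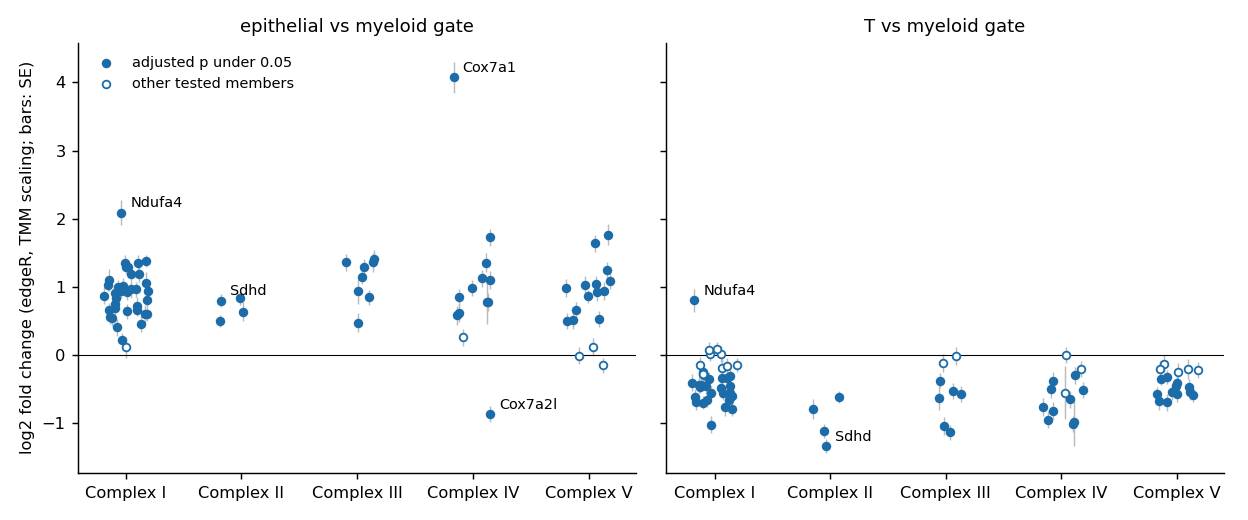
Log2 difference of each tested member between gates (edgeR, TMM scaling, library as block), epithelial against myeloid on the left and T against myeloid on the right, by complex; bars are standard errors and filled points have an adjusted p under 0.05. Most members lie above 0 on the left and below 0 on the right; Ndufa4 is above 0 in both, and Cox7a2l below 0 on the left.

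T cells against myeloid cells gave a result for the set that turned on the scaling, while a few members differed under both scalings. With TMM scaling, 58 of 78 members were lower and 1 higher in T cells (background 35% lower and 32% higher; median -0.47), whereas with total-UMI scaling, which was added with the data in view, 11 were lower and 14 higher (background 24.1% and 48.7%; median -0.01). The median of all genes was -0.02 with TMM and 0.46 with total UMIs, so relative to all genes the members lay lower by a similar margin in both. By CPM within a library, 44 of 78 were lower in T cells in the WT macrophage library, 51 in the IL34KO macrophage, 44 in the WT T-cell, 46 in the IL34KO T-cell and 62 in the GVHD library. The BM library went the other way, with 70 of 78 higher in T cells. With TMM scaling and without the BM and GVHD libraries, 66 members were lower and 1 higher, and the share of all genes called in that fit is not given here. In the BM and GVHD libraries the T gate also carried fibroblast markers (5 of 5 detected) at 1963 and 1628 CPM, against 0 of 5 detected in the WT and IL34KO macrophage libraries and 26.0 and 58.3 CPM in the T-cell libraries, and their part in the result was not tested.

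Ndufa4 was the member higher in T cells. In the T gate it was at 137 CPM in BM, 143 in GVHD, 211 and 251 in the WT and IL34KO macrophage libraries, and 232 and 218 in the WT and IL34KO T-cell libraries. The myeloid gate had 121, 74.3, 84.8, 94.5, 70.5 and 59.2 CPM in the same order. Every T value was above every myeloid value, and the log2 difference was 0.80 (1.74-fold, SE 0.17, edgeR adjusted p = 0.0005362), or 1.27 with total-UMI scaling (Ndufa4, T vs myeloid).

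Complex II was lower in T cells in all 4 subunits with TMM scaling, and its anchors also with total UMIs. Sdhd (chromosome 9, 50596357 to 50603812, minus strand) was at 43.8, 55.3, 23.0, 27.3, 25.6 and 56.4 CPM in T cells against 56.5, 110, 53.6, 53.0, 47.4 and 106 CPM in myeloid cells, in the library order used above. It was lower in T cells in 6 of 6 libraries, with a log2 difference of -1.34 (2.53-fold lower, SE 0.11, adjusted p = 2.622e-08). Sdhc was lower by a log2 difference of -1.11, Sdhb of -0.80 and Sdha of -0.62; with total-UMI scaling Sdhd, T vs myeloid, was at -0.87 and Sdhc, T vs myeloid, at -0.64, while Sdhb and Sdha missed the threshold. Members of other complexes furthest below 0 with TMM were Uqcrb (-1.14) and Uqcr11 (-1.04) of complex III, Ndufc1 (-1.03) and Ndufc2 (-0.79) of complex I, Cox7a2l (-1.02) of complex IV, and Atp5l (-0.70) and Atp5mpl (-0.68) of complex V. Of these, Uqcrb, Uqcr11, Ndufc1 and Cox7a2l also passed with total UMIs, and Atp5l did not. Cox7a1 was called lower at -0.98 (adjusted p = 0.02204), but its levels of 1.51 to 5.32 CPM in T cells overlapped with the myeloid ones and it lost the call in 5 alternatives, DESeq2 among them.

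Set against T cells, the epithelial gate was higher in 75 of 78 members and lower in none (background 35.7% and 35.5%; edgeR, median log2 difference 1.39), and total-UMI scaling gave 76 and 0. Cox7a1 again led at 5.06 (33.3-fold), followed by Uqcr11 at 2.46, Uqcrb at 2.28, Atp5g1 at 2.19 and Sdhd at 2.14. Cox7a1 had only 2 to 18 UMIs in the T gate of each library, so the size of its fold is imprecise. In complex I, Ndufc1 and Ndufv1 (the flavoprotein that binds NADH) were furthest at 1.96 each, and Ndufa4 was at 1.29. The 3 that missed the threshold were Cox7a2l (0.15), Atp5g2 (0.17) and Atp5e (0.20).

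**Figure D3:**
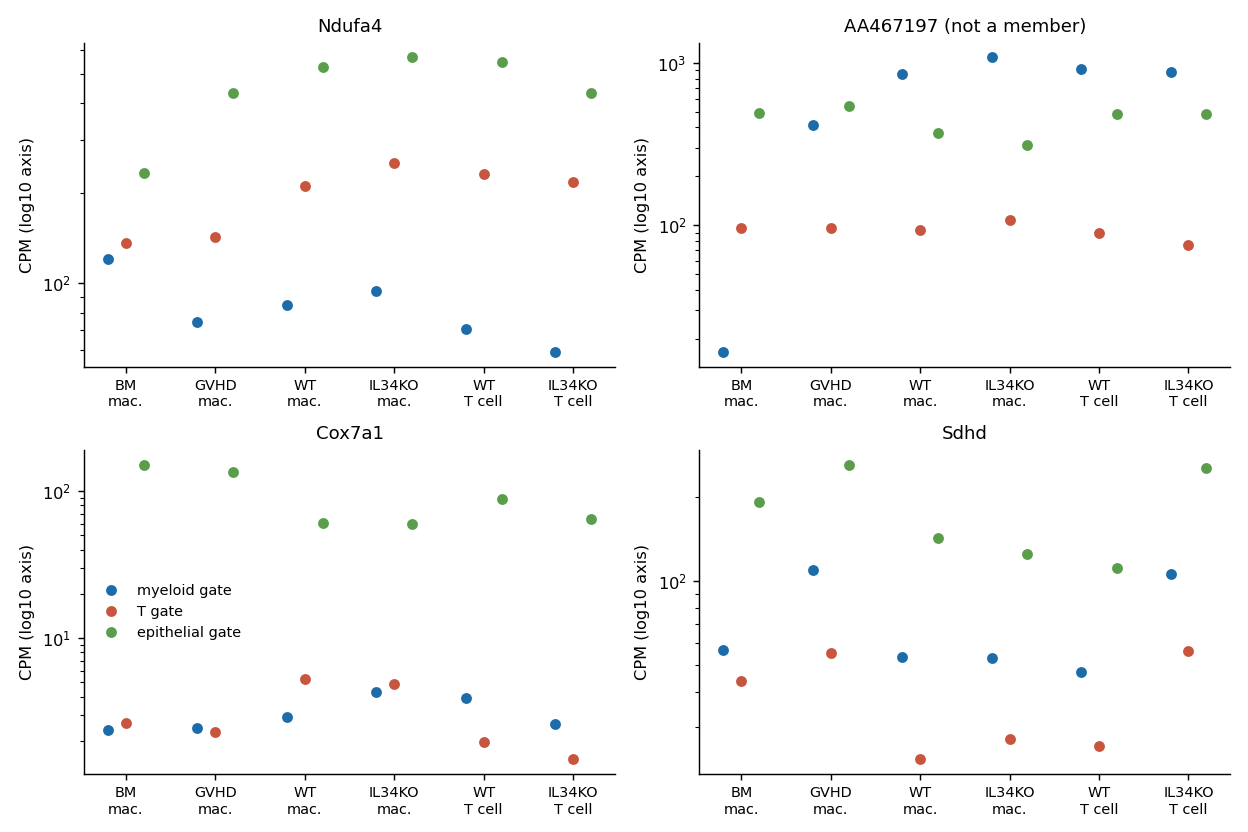
CPM of Ndufa4, its relative AA467197, Cox7a1 and Sdhd in each library and gate, on log10 axes that do not start at 0. Ndufa4 is highest in epithelial cells and lowest in myeloid cells of every library; AA467197 in myeloid cells is at 16.6 CPM in BM and at 413 to 1081 CPM elsewhere; Sdhd is higher in GVHD and IL34KO T-cell libraries than in the WT T-cell library in each gate.

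Members were also higher in the GVHD library than in the BM library within myeloid cells, a difference seen in the nuclear and much less in the mitochondrially encoded subunits. The summed members went from 0.930% (0.927 to 0.934) of UMIs in BM to 1.62% in GVHD, a ratio of 1.743 (1.735 to 1.751), with 1 library each and no test. By complex the ratio was 1.54 for complex I, 1.63 for II, 1.74 for III, 1.88 for IV and 1.80 for V, so complexes IV and V were further apart than complex I. Mitochondrially encoded subunits went from 2.79% to 3.33%, a ratio of 1.19, and their median gene differed by 0.03 on the log2 scale. Per cell, the median share of the members was 0.855% in BM and 1.60% in GVHD, with 10th to 90th percentiles of 0.369% to 1.40% and 0.966% to 2.23%, so that the cells overlapped. The other 4 libraries, at 1.65% to 2.00%, lay with or above GVHD, and the BM library was the one set apart.

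Of 77 members at 5 CPM or more in at least 1 of the 2 libraries, 54 were at least 1.5-fold higher and 2 at least 1.5-fold lower in GVHD, where 15.2% of all 9871 measured genes were higher and 18.7% lower. The median log2 ratio was 0.79, against -0.01 over all measured genes. Those higher were 20 of 36 in complex I, 3 of 4 in complex II, 7 of 8 in complex III, 9 of 12 in complex IV and 15 of 17 in complex V. Furthest up were Atp5g3, at 116 CPM in BM and 299 in GVHD (2.58-fold, 2.48 to 2.68), the complex I accessory subunit Ndufb5 at 76.3 and 186 CPM (2.43-fold), and Uqcrfs1, the Rieske iron-sulfur protein of complex III, at 63.1 and 150 CPM (2.37-fold). Of complex IV, Cox8a was at 437 and 925 CPM (2.12-fold) and Cox4i1 at 419 and 866 CPM (2.07-fold). In complex II the ratios ran from 1.35 for Sdha to 1.94 for Sdhd. The c-ring gene Atp5g1 had a ratio of 1.94 and Atp5g2 one of 1.85, and of the Cox7a group Cox7a2 had 1.70 and Cox7a2l 1.96. Atp5md, a small ATP synthase subunit, was nearly level at 215 and 236 CPM (1.10-fold), the third from the bottom.

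The lower pair was Ndufa4, at 121 CPM in BM and 74.3 in GVHD (1.63-fold lower, 1.55 to 1.71), and Cox6b2, at 180 and 73 UMIs (3.54-fold lower, 2.68 to 4.71). Neither call held throughout. With TMM or median-of-ratios scaling Ndufa4 came within 1.5-fold and only Cox6b2 was called lower. Cox6b2, at 6.25 CPM in BM and 1.76 in GVHD, was measured through its BM level alone and dropped out with a floor of 20 CPM. Ndufa4 has a relative outside the symbol rule, AA467197 (chromosome 2, 122636986 to 122641191, plus strand), whose protein is known to replace Ndufa4 in complex IV during inflammation; it was picked after its values were seen. AA467197 was at 16.6 CPM (478 UMIs) in BM myeloid cells and at 413 in GVHD, 853 and 1081 in the WT and IL34KO macrophage libraries, and 919 and 877 in the WT and IL34KO T-cell libraries. The GVHD level was 24.9-fold that of BM (22.7 to 27.3), and 29.2-fold (26.1 to 32.9) within cells with C1q genes. In T cells AA467197 was at 76.0 to 107 CPM in all 6 libraries with a GVHD to BM ratio of 1.002 (0.722 to 1.39), and Ndufa4 there had a ratio of 1.05 (0.799 to 1.37). In epithelial cells it was at 312 to 545 CPM. BM myeloid cells thus had the lowest AA467197 of any gate and library, and the highest Ndufa4 of the myeloid gates. The other myeloid gates did not keep such an opposite order. The IL34KO macrophage library had the highest AA467197 (1081 CPM) and 94.5 CPM of Ndufa4. GVHD was lower in both, at 413 and 74.3 CPM.

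Narrower groups of myeloid cells showed the same direction. The GVHD to BM ratio of the summed members was 1.82-fold (1.81 to 1.83) in myeloid cells with at least 5 C1q UMIs and none of Ly6c2 and Plac8, 1.61-fold in cycling cells, and 1.88-fold in cells without a UMI of the cycle genes. In the T gate the ratio was 0.982 (0.956 to 1.01), on 103 and 159 cells. Myeloid cells of the BM library held fibroblast markers (5 of 5 detected) at 95.2 CPM against 11.6 (5 of 5) in GVHD, B and plasma cell markers at 62.0 against 2.68, endothelial markers (5 of 5) at 57.0 against 20.7, and neutrophil markers (5 of 5) at 69.8 against 178; their part in the result was not tested. With the shared barcodes kept in BM, 46 members were at least 1.5-fold higher, and no run removed them from GVHD. TMM scaling gave 64 higher and 1 lower, and shifted the median of all genes to 0.13 and that of the members to 0.92. The share of all genes past 1.5-fold is not given here for either run. Fewer molecules of a gene per cell and a different mixture of cells inside a gate cannot be told apart in such sums.

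Other lists were counted in the same comparison, where 15.2% of all genes were at least 1.5-fold higher. Of glycolysis genes 13 of 15 were at least 1.5-fold higher in GVHD (median log2 ratio 1.31), of tricarboxylic acid cycle enzymes 8 of 13, of carriers 8 of 11 and of cytosolic ribosome genes 44 of 82 (median 0.60). Assembly factors gave 6 of 41 (14.6%), which is at the background, and mitochondrial ribosome genes 20 of 78 (25.6%). Of the 13 mitochondrially encoded subunits, none was 1.5-fold higher and 1 was lower. Regulators of mitochondrial biogenesis gave 2 higher and 1 lower of 9.

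**Figure D4:**
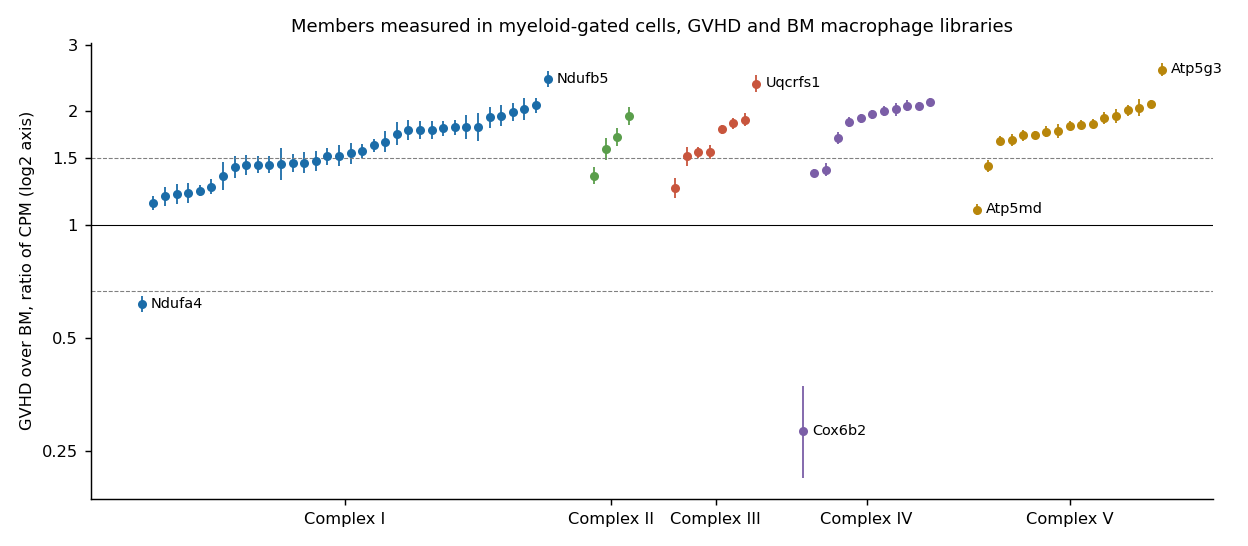
Ratio of CPM in myeloid-gated cells, GVHD over BM, for the 77 measured members, ordered within complexes on a log2 axis; bars are exact binomial 95% intervals (counting error only) and dashed lines mark 1.5-fold. Only Ndufa4 and Cox6b2 lie below 1, and Atp5g3 is highest at 2.58.

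Within the myeloid gate, cells with monocyte genes and cells with C1q genes, which mature macrophages express, differed in few members. Cells with at least 2 UMIs of the monocyte genes Ly6c2 and Plac8 and at most 1 of C1qa, C1qb and C1qc were set against cells with at least 5 C1q UMIs and none of the former, in the 4 libraries with WT and IL34KO recipients; BM and GVHD had 24 and 11 cells of the first kind, under the 30 required. By edgeR, 5 of 77 members were higher and 6 lower in Ly6c2/Plac8 cells, beside 10.4% and 12.1% of all genes, with a median of -0.05, so the share called was below the background. Ndufa4 was the clear exception, at 142, 132, 150 and 136 CPM in Ly6c2/Plac8 cells and 54.6, 60.7, 65.7 and 52.8 CPM in C1q cells of the WT macrophage, IL34KO macrophage, WT T-cell and IL34KO T-cell libraries. It was higher in 4 of 4 libraries without overlap (log2 difference 1.26, 2.39-fold, SE 0.11, adjusted p = 1.859e-05) and kept the call in every alternative run. AA467197 differed there by 0.12 (adjusted p = 0.3103). Ndufs4, an accessory complex I subunit, was higher by 0.58 and Ndufb3 by 0.35, and Cox7a2 and Cox6a1 by 0.28 and 0.31 with adjusted p of 0.04866 and 0.04965. Lower were Cox7a2l (-0.58), Sdha (-0.57), Cox5a (-0.40), the synthase alpha subunit Atp5a1 (-0.35), Uqcr10 (-0.30) and Atp5g3 (-0.30); without the WT macrophage library no member was called lower, and without any 1 of the 4 libraries 2 or 3 were called higher.

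Cycling myeloid cells differed little from the others, and the libraries did not point one way. Cells with at least 2 UMIs of 8 cycle genes were compared with cells that had none. As with the Ly6c2/Plac8 and C1q cells, the division was by raw UMIs. Total UMIs per cell were not matched between the groups, and their part in the result was not tested. By edgeR, 6 of 79 members were lower and none higher in cycling cells, beside 2.76% and 5.95% of all genes. The median log2 difference was -0.09, and 76 of 79 were below 0. Of all 12468 genes tested, 6858 were below 0 (median -0.02). So were 80 of 84 cytosolic ribosome genes (median -0.09) and all 13 mitochondrially encoded subunits (median -0.08). Tricarboxylic acid cycle enzymes were mixed, with 6 below and 7 above 0. Atp5md was lowest of those called at -0.25 (adjusted p = 0.001554), then Ndufa6 (-0.20), Ndufb4 (-0.17), Uqcrh (-0.17), Ndufv2 (-0.16) and Cox7a2l (-0.16, adjusted p = 0.04836). In CPM, 49 to 73 of the 79 were lower in cycling cells in each of 5 libraries, while in the BM library 74 were higher with a median of 0.18. Without BM 39 members were called lower, without BM and GVHD 52, without any other single library 1, and with total-UMI scaling 1 (background 1.18%). The share of all genes called in the fits with libraries left out is not given here. Whether the members stood out from all genes there cannot be read from these counts. Complex II had no called member in this comparison, and Ndufa4 was at -0.02.

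Libraries labelled IL34KO and WT lay close together in the set as a whole, with 1 library per group and no test. In myeloid cells of the macrophage libraries none of 76 measured members passed 1.5-fold either way (background 1.19% higher and 2.09% lower). Their sum was 1.76% in WT and 2.00% in IL34KO, a ratio of 1.133 (1.129 to 1.137), and single members ran from 0.893 for Cox7a2l, Atp5g2 at 0.905 and Ndufb10 at 0.942 to 1.37 for Atp5k, 1.38 for Ndufa3 and 1.38 for Uqcr11. By complex the ratio was 1.14 for I, 1.01 for II, 1.18 for III, 1.14 for IV and 1.12 for V. Neutrophil markers in the same cells (5 of 5 detected in both) were at 2033 CPM in WT and 4718 CPM in IL34KO, and their part was not tested. In myeloid cells of the T-cell libraries the sum went the other way, from 1.82% to 1.65%, a ratio of 0.909 (0.906 to 0.913); 1 of 76 members was higher and 1 lower past 1.5-fold (background 0.874% and 0.502%). Markers of other cells in this pair, WT then IL34KO, were at 147 and 77.5 CPM for neutrophils (5 of 5 detected), 12.0 and 27.4 for fibroblasts (5 of 5) and 10.0 and 2.72 for B and plasma cells, and their part was not tested. The complex II sum was at 1.22 there against 0.873 to 0.928 for the other complexes. Sdhd was its only member past 1.5-fold, and the median log2 ratio of its 4 genes was 0.09. In T-gated cells the sum had a ratio of 0.895 (0.888 to 0.902), and 1 of 76 was higher and 2 lower (background 2.63% and 1.71%). Epithelial cells gave 0.999 (0.994 to 1.005) in the macrophage libraries, with 1 of 78 higher and 0 lower (background 5.87% and 2.37%), and 0.874 (0.870 to 0.879) in the T-cell libraries, with 1 of 77 higher and 1 lower (background 4.19% and 1.51%). The one in the macrophage libraries was Cox6b2, on 20 and 65 UMIs with an interval that includes 1 (0.958 to 2.79). Epithelial cells of the T-cell libraries held fibroblast markers at 45.4 (WT) and 2.0 CPM (IL34KO). Neutrophil markers in those of the macrophage libraries were at 39.3 and 139.8 CPM, and neither part was tested. Mitochondrially encoded subunits had ratios of 0.850 (myeloid) and 0.867 (epithelial) in the macrophage libraries. The T-cell libraries gave 1.29 (myeloid), 1.14 (T) and 1.03 (epithelial) for them.

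Sdhd and Atp5k were past 1.5-fold in all 3 gates of the T-cell libraries. Sdhd went from 47.4 CPM in WT to 106 CPM in IL34KO in myeloid cells (2.25-fold, 2.13 to 2.37). In T-gated cells it went from 25.6 to 56.4 CPM (2.20-fold, 1.86 to 2.61), and in epithelial cells from 112 to 254 CPM (2.28-fold, 2.10 to 2.47). Sdhd was thus higher by a similar factor in each gate of the IL34KO T-cell library. Of the other complex II subunits in myeloid cells, Sdhb had a ratio of 1.10. Sdha was at 94.9 CPM in WT and 98.0 in IL34KO, and Sdhc at 66.64 and 66.55 CPM. The macrophage libraries did not show the Sdhd difference, with 53.6 and 53.0 CPM in myeloid and 142 and 125 CPM in epithelial cells. Across all 6 libraries the GVHD and IL34KO T-cell libraries held the highest Sdhd in the myeloid gate, at 110 and 106 CPM. The other 4 were at 47.4 to 56.5 CPM. BM lay with the lower libraries in that gate only. In the T gate BM was at 43.8 CPM, GVHD at 55.3 and IL34KO T-cell at 56.4. The rest were at 23.0 to 27.3 CPM there. In the epithelial gate BM, with few cells, was at 193 CPM, GVHD at 262 and IL34KO T-cell at 254. The rest were at 112 to 142 CPM there.

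Atp5k, the e subunit that helps ATP synthase form dimers (chromosome 5, 108433244 to 108434448, minus strand), was lower in each gate of the IL34KO T-cell library. It went from 188 to 115 CPM in myeloid cells (1.63-fold lower, 1.57 to 1.69), from 158 to 104 CPM in T cells (1.52-fold lower, 1.39 to 1.68) and from 546 to 334 CPM in epithelial cells (1.64-fold lower, 1.56 to 1.72). In the macrophage libraries Atp5k was at 201 and 276 CPM in myeloid and 543 and 628 CPM in epithelial cells, so it was not lower in IL34KO there. Uqcr11 in T cells, at 117 and 78.0 CPM, was the other pass (1.504-fold lower, 1.35 to 1.68). Cytosolic ribosome genes were also lower in the IL34KO T-cell library. Of 82 measured, 8 were at least 1.5-fold lower in myeloid, 8 in T-gated and 7 in epithelial cells, and 0 higher. The background was 0.502%, 1.71% and 1.51% lower. With 1 library per group, the IL34KO label and anything else particular to that library, such as the kit, cannot be told apart.

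**Figure D5:**
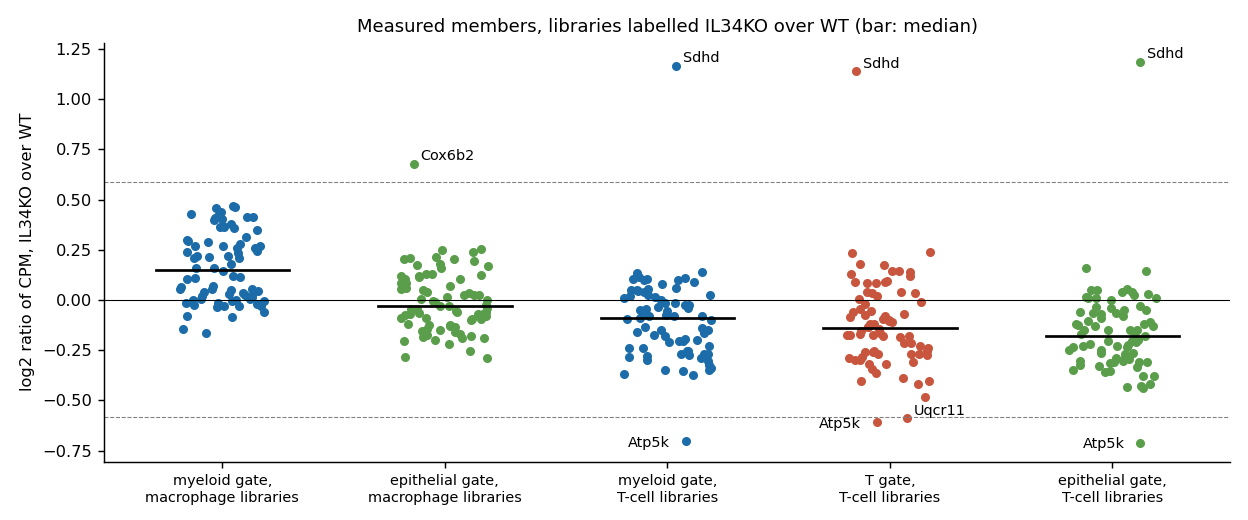
Log2 ratio of CPM, library labelled IL34KO over WT, for each measured member (points) by gate and library pair, with the median as a bar and dashed lines at 1.5-fold. Sdhd lies above and Atp5k below the lines in all 3 gates of the T-cell libraries and in neither gate of the macrophage libraries.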

How the data were processed

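Single-cell RNA was measured in 6 libraries, 1 per group. Per the submitters' processing notes, reads were processed with Cell Ranger 7.0.1 on mm10; the deposited values are UMI counts per gene and barcode, and the settings for strand, introns and reads shared with processed pseudogenes, which many members have, are not given in the sources used here. Barcodes under 500 genes or above 10% mitochondrial UMIs were removed, no doublet caller was run, and gates allowed at most 1 marker of each other class. Counts were summed per library and gate (at least 30 cells) and tested with edgeR 4.0.16 (R 4.3.3; TMM, filterByExpr, library as block), called at an adjusted p under 0.05. DESeq2 1.42.0, other scalings, filters and gates, and leaving out each library were alternatives. The test was run on simulated counts with no differences between libraries and few changed genes. That setting does not check the scaling between gates in which many genes differ. Between 2 libraries there was no test: ratios of CPM carry conditional exact binomial 95% intervals, a gene needed 5 CPM in 1 of them, and 1.5-fold was the call. Summed UMIs were 25694918 to 46864821 in myeloid gates, 564207 to 9131074 in T gates and 465681 to 8622020 in the tested epithelial gates. Sums pool cells of 1 library, so p-values measure the spread over libraries. Named members are the 2 furthest called per complex and direction in gate contrasts, the 3 furthest each way between libraries, the Sdh genes, the isoform families, and the 3 most correlated genes; other named genes were chosen after their values were seen. Members and lists were chosen with earlier results of these data known. Promoters are RefSeq's (GRCm38.p6); coordinates are from GENCODE M21 (GRCm38).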

Additional observations from a re-analysis of the deposited data

Results flagged for a closer look

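In myeloid-gated cells the summed members had an IL34KO to WT ratio of 1.133 in the macrophage libraries and of 0.9093 in the T-cell libraries, opposite directions with 1 library each; the difference was not tested.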

How the results depend on the processing

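No paired analysis was possible because the labels give no replicate number that groups share; library is the block within each gate contrast. Epithelial against myeloid, members called lower went from 1 to 3 with no count filter, 2 with the looser barcode filter and 2 with at least 100 cells per sum, and from 1 to 2 over leaving out each library; epithelial against T, 2 were lower with no count filter. T against myeloid with total-UMI scaling (chosen after the data were seen) gave 14 higher and 11 lower, and of the named members 4 turned sign: Cox6a1 to 0.076, Cox7a2 to 0.16, Atp5g2 to 0.14 and Cox7b to 0.46 (Atp5g2, T vs myeloid; likewise Cox6a1, Cox7a2 and Cox7b, T vs myeloid); Atp5g2, epithelial vs myeloid, turned to 0.37. Cycling against other myeloid cells, members lower were 2 with no count filter, 0 without the library block, 2 and 13 with the looser and stricter barcode filters, 17 with shared barcodes kept, 1 with total UMIs, 52 without BM and GVHD (both chosen after the data were seen), and 1 to 39 over leaving out each library. Ly6c2/Plac8 against C1q cells, members higher were 3 with DESeq2, 2 with no count filter, 3 with shared barcodes kept, 2 with at least 100 cells, 3 with total UMIs and 2 to 5 over leaving out each library; members lower were 11 with no count filter, 1 with shared barcodes kept and 0 to 6 over leaving out each library. GVHD against BM, members lower were 1 with TMM, median-of-ratios scaling, a floor of 20 CPM or no cycling cells, and 4 with no floor. IL34KO against WT, myeloid cells of the T-cell libraries gave 2 higher and 2 lower with no floor, and 6 higher and 8 lower with a median of 0.026 in Ly6c2/Plac8 cells (chosen after the data were seen); T-gated cells gave 1 lower with the looser filter, no marker of another class, 2 own markers, cells weighted equally or no cycling cells; epithelial cells of the T-cell libraries gave 2 lower with no floor. In epithelial cells of the macrophage libraries the median turned to 0.074 (looser filter), 0.11 (no marker of another class), 0.055 (cells weighted equally) and 0.13 (no cycling cells), and Cox6b2 (Cox6b2, IL34KO vs WT, epithelial gate, macrophage libraries) to -0.077 with cells weighted equally. The cause was not tested. Other counts stayed within 1.5 times. Except for total-UMI scaling, the share of all genes called in each alternative is not given here. Of the values of single members and medians, 2702 kept their direction and call, 116 lost and 36 gained a call, 329 moved and 11 reversed. Small T and epithelial gates in the macrophage libraries limit the precision of low genes.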
